A study of Arabidopsis thaliana with 12 samples.

Results

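The genes described here are 9 ethylene response factor (ERF) genes of *Arabidopsis thaliana*, chosen by locus identifier out of the 27371 genes listed for every library. Group IX of the family gave 7 of them (*ERF1A* AT4G17500, *ERF2* AT5G47220, *ERF13* AT2G44840, *ERF5* AT5G47230, *ERF6* AT4G17490, *ERF104* AT5G61600 and *ERF105* AT5G51190) and group VIII gave 2 (*ERF4* AT3G15210 and *ERF11* AT1G28370). The study asked how LINC1 (LITTLE NUCLEI 1), a lamin-like protein under the nuclear envelope, affects transcription during immunity. mRNA of whole 14-day-old seedlings was sequenced in 4 groups of 3 libraries, which the study calls biological replicates. The groups were *linc1-1* treated for 24 h with *Pst hrcC*-, *linc1-1* mock, wild type (WT) treated for 24 h with *Pst hrcC*-, and WT mock. *linc1-1* is a T-DNA insertion line, SALK_025347, in the Col-0 background, so that 1 insertion allele stands for the loss of *LINC1*, and WT is Col-0. *Pst hrcC*- is a *Pseudomonas syringae* pv. *tomato* strain that lacks a working type III secretion system and is used to trigger the immunity that plants mount on sensing general microbial molecules. It was applied at an OD600 of 0.002 to seedlings grown at 23 °C.

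Ethylene is a gaseous plant hormone. Its binding to the receptors acts through EIN2 to stabilize the transcription factors EIN3 and EIL1, which switch on ERF genes. ERF proteins bind the GCC box in promoters such as those of plant defensins. Group IX members such as ERF1A, ERF2 and ERF5 are activators, whereas ERF4 and ERF11 of group VIII carry an EAR motif, a short stretch that recruits co-repressors, and hold GCC box genes down. Several group IX proteins are also tied to the immune MAP kinases: ERF6 is a substrate of MPK3 and MPK6, and ERF104 binds MPK6 and leaves it on perception of flagellin. *ERF2* and *ERF6* were among the genes that the study measured by qRT-PCR, so their part in the set is not independent of the study's own choice.

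The values are FPKM, the number of sequenced fragments scaled to transcript length and to the mapped fragments of the library. The deposited tables hold no read counts, so the depth behind each value is unknown. *LINC1* was listed at 2.09 to 3.76 FPKM in the 6 *linc1-1* libraries and at 17.2 to 28.3 FPKM in the 6 WT libraries, and every library thus held the level of its labelled line. The WT libraries were uneven. On the first principal component of all tested genes, WT *Pst hrcC*- replicate 1 (−27.8) and WT mock replicate 1 (−49.0) lay on the side of the *linc1-1* libraries (−39.5 to −4.98) and away from the other 4 WT libraries (41.8 to 59.0). The next component held the *linc1-1* libraries between −42.7 and 5.57 and the WT libraries between −22.1 and 14.0, except WT *Pst hrcC*- replicate 1 at 77.6. Results that rest on these libraries are therefore given with and without them. Both WT replicate 1 libraries were picked out from these same values. Leaving out WT libraries that lie on the *linc1-1* side of the first component favours a difference between the lines. Calls made without them describe the remaining libraries and are not separate evidence of a difference. Clock genes also differed in both WT replicate 1 libraries. WT *Pst hrcC*- replicate 1 had 18.6 FPKM of *CCA1*, a dawn-phased clock gene, against 0.0938 to 2.07 FPKM in the other 11 libraries. *TOC1*, another clock gene, had 5.74 FPKM in WT *Pst hrcC*- replicate 1 and 32.3 FPKM in WT mock replicate 1. The other 4 WT libraries had 75.0 to 96.6 FPKM of it. *LHCB2.1*, a green tissue gene, had 1748 FPKM in WT *Pst hrcC*- replicate 1 and 1440 FPKM in WT mock replicate 1, against 57.0 to 88.6 FPKM in the other 4. Seedlings hold many cell types, and fewer cells of a type cannot be told apart from less RNA per cell.

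All 9 genes have 1 exon in the TAIR10.1 annotation, and most lie near another ERF gene. *ERF1A* (chr4:9759203-9760391, plus strand) and *ERF6* (chr4:9752824-9754161, minus strand) are neighbours with 5041 bp between them. *ERF2* (chr5:19171643-19172956, minus) and *ERF5* (chr5:19179881-19181182, plus) lie 6924 bp apart with 1 gene between them. *ERF104* (chr5:24766344-24767732, minus) is next to *ERF107*, and *ERF11* (chr1:9955774-9956980, minus) is next to *ERF12*. *ERF13* (chr2:18495215-18496327, plus) and *ERF4* (chr3:5121303-5122562, plus) have no such neighbour. All 965 bp of *ERF105* (chr5:20800473-20801437, minus) overlap AT5G51180 on the opposite strand. The sources used here do not say whether strand was used in computing FPKM, so reads of the overlapping pair may have been mixed and the *ERF105* values are uncertain. Among the coding sequences, *ERF1A* and *ERF2* (77.6%) and *ERF5* and *ERF6* (77.5%) were most alike, and the longest run of identical bases in either pair was 29, against reads of 100 bp.

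The 250 bases upstream of the annotated start are shown for *ERF1A*, *ERF2*, *ERF4* and *ERF11*, the members whose *linc1-1* and WT libraries separated after *Pst hrcC*- and whose FPKM are not affected by an overlapping gene. They are RefSeq sequence of TAIR10.1, printed along the strand of the gene, from chr4:9758953-9759202, chr5:19172957-19173206, chr3:5121053-5121302 and chr1:9956981-9957230, in that order. Capitals mark the W box core TTGAC, which WRKY factors bind, the G box CACGTG, which bHLH and bZIP factors bind, and the GCC box GCCGCC, each searched on both strands, and no matches overlapped.
ERF1A: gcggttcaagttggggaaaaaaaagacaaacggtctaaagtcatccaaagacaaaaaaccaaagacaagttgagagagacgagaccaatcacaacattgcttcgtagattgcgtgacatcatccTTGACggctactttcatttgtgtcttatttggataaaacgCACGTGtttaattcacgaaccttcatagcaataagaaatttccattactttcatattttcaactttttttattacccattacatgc
ERF2: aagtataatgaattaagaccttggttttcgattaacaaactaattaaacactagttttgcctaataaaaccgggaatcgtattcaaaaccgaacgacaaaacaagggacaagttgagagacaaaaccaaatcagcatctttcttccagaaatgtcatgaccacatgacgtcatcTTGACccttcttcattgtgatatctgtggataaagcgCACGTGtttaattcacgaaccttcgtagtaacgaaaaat
ERF4: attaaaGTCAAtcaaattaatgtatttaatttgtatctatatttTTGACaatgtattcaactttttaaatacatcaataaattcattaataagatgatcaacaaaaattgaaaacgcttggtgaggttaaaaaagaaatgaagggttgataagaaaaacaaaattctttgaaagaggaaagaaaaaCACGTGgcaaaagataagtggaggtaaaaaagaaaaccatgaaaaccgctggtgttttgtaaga
ERF11: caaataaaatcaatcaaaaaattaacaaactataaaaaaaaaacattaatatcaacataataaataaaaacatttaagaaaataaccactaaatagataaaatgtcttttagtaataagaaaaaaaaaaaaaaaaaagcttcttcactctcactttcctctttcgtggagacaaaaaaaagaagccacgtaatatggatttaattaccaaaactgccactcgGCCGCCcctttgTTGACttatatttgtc

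A G box stood in 3 of the 9 promoters, those of *ERF1A*, *ERF2* and *ERF4*, where 6.5% of 27443 annotated promoters of the same length held one. *ERF1A* and *ERF2* share a run of 26 bases around it, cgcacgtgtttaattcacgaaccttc, that begins 88 bases before the start of *ERF1A* and 41 bases before that of *ERF2*. A W box core stood in 7 of 9 (44.9% of all promoters), with none in the windows of *ERF6* and *ERF104*, and *ERF11* alone held a GCC box (1.9% of all promoters). CGCGTT, the rapid stress response element, was found in 0 of the 9 windows (2.6% of all promoters). These are matches of letters and say nothing of binding.

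The division into activators and repressors is visible in the coding sequence. The form searched for in the translated RefSeq coding sequences was DLNxxP in amino acids, where x is any. An EAR motif of this form was found in 187 of 27415 genes (0.68%), and among the 9 members in *ERF4* and *ERF11* alone. Other forms of the motif were not searched for. It begins at coding base 634 of 669 in *ERF4* and at coding base 583 of 615 in *ERF11*, close to the end of the protein. Capitals mark the 18 bases that encode it.
ERF4: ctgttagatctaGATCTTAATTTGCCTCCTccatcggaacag
ERF11: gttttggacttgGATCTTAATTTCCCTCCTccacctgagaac

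All 9 members averaged 1 FPKM or more over the libraries and were tested, but their levels spanned a wide range. In WT mock seedlings the order by mean FPKM was *ERF104* (61.0 ± 23.8, SD, n = 3), *ERF1A* (35.0 ± 22.1), *ERF6* (27.7 ± 6.70), *ERF4* (19.0 ± 1.5), *ERF2* (7.55 ± 4.52), *ERF5* (4.56 ± 1.26), *ERF105* (3.18 ± 1.94), *ERF11* (1.04 ± 0.399) and *ERF13* (0.358 ± 0.0817). Of the neighbours in that order, only *ERF6* and *ERF4*, *ERF4* and *ERF2*, and *ERF11* and *ERF13* had ranges that did not overlap. The top of the order differed between groups. *ERF104* had the highest FPKM of the 9 genes in 9 libraries, namely all 6 of *linc1-1* and all 3 of WT mock, and *ERF1A* had the highest in the 3 WT *Pst hrcC*- libraries. The FPKM of *ERF1A* relative to *ERF104* was 0.824, 0.731 and 0.886 in *linc1-1* after *Pst hrcC*-, 0.465, 0.462 and 0.311 in *linc1-1* mock, 2.31, 1.14 and 1.24 in WT after *Pst hrcC*-, and 0.329, 0.698 and 0.553 in WT mock. The ratio was thus above 1 in 3 of 12 libraries, those of WT seedlings that had received bacteria.

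**Figure D1:**
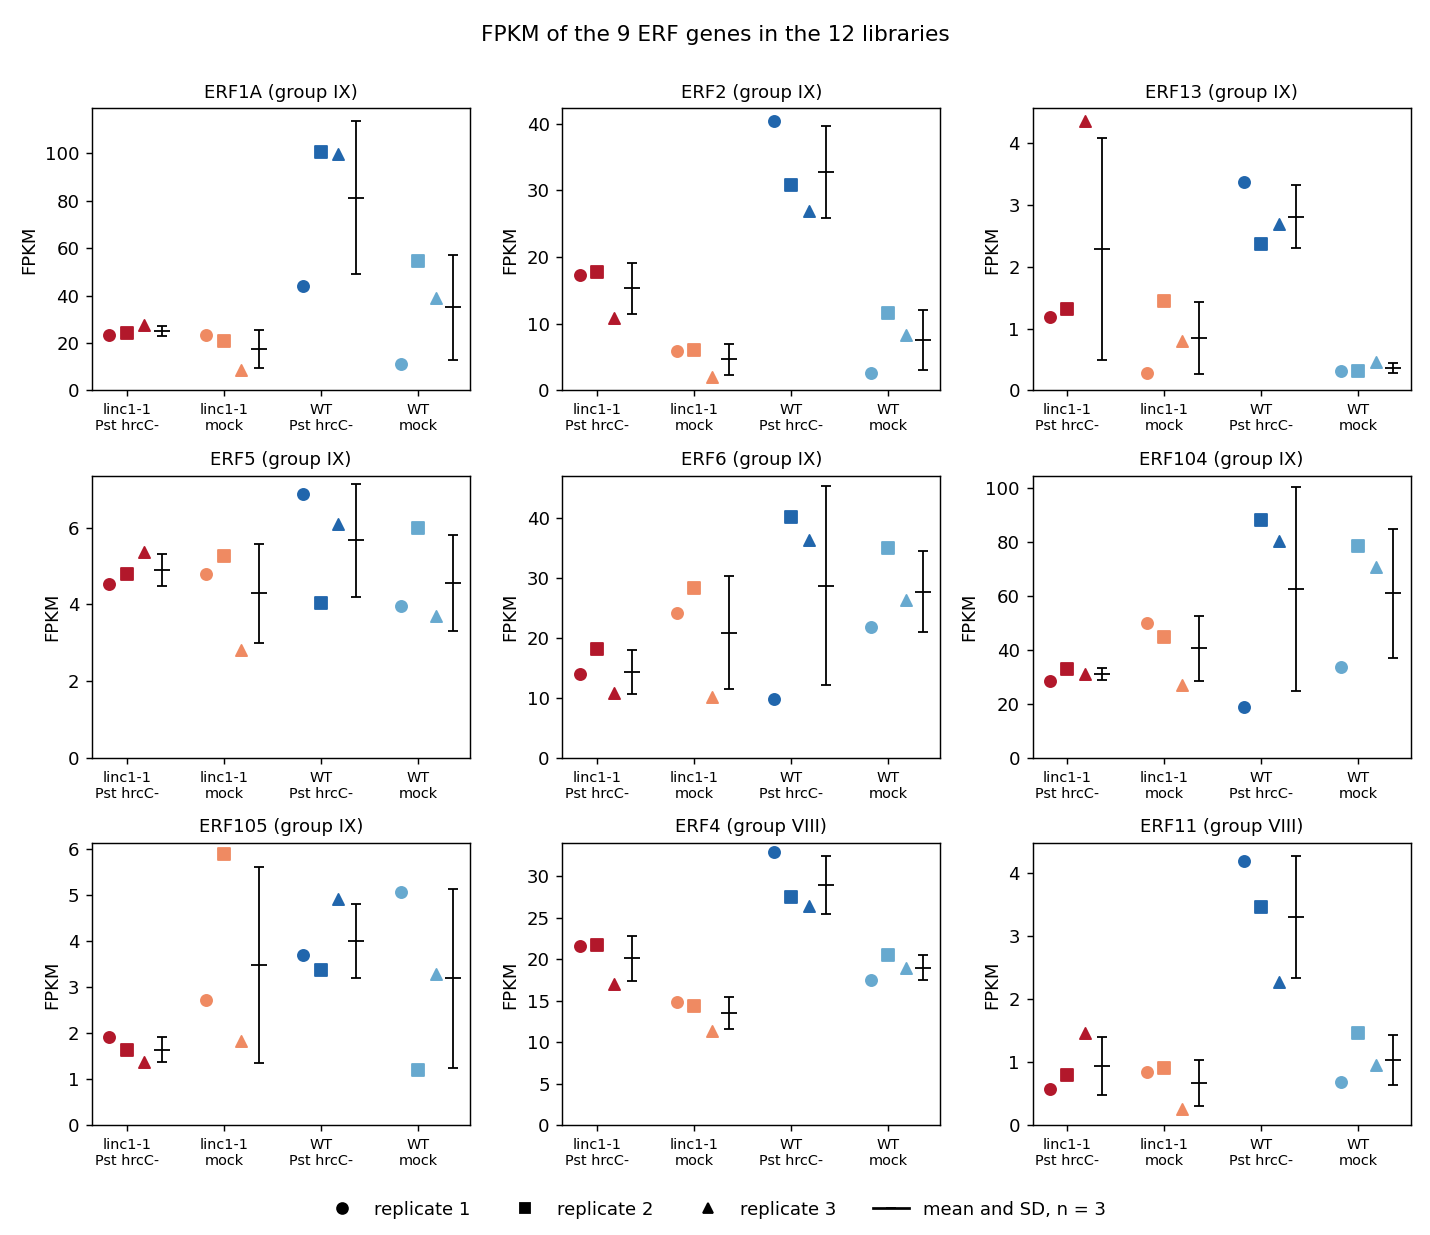
FPKM of each member (y axis, from 0) in the 4 groups, with a marker for each replicate and the mean and SD beside them. *ERF1A*, *ERF2*, *ERF105*, *ERF4* and *ERF11* had every *linc1-1* *Pst hrcC*- library below every WT *Pst hrcC*- library, and WT *Pst hrcC*- replicate 1 was the lowest of 12 libraries for *ERF6* (9.77) and *ERF104* (19.0).

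*ERF1A*, *ERF2* and *ERF13* belong to subgroup IXa. *ERF1A*, an activator of GCC box genes, had 23.6, 24.2 and 27.6 FPKM in *linc1-1* *Pst hrcC*- seedlings and 23.3, 20.7 and 8.43 FPKM in *linc1-1* mock seedlings, against 43.9, 100.4 and 99.5 FPKM in WT *Pst hrcC*- seedlings and 11.1, 54.7 and 39.1 FPKM in WT mock seedlings. After *Pst hrcC*- every *linc1-1* library was below every WT library, while in mock seedlings the lines overlapped because WT replicate 1 was low. *ERF2*, also an activator, had 17.3, 17.7 and 10.9 FPKM in *linc1-1* *Pst hrcC*- and 5.92, 6.10 and 1.99 FPKM in *linc1-1* mock, against 40.4, 30.7 and 27.0 FPKM in WT *Pst hrcC*- and 2.68, 11.6 and 8.34 FPKM in WT mock. In both lines the treatments were apart for *ERF2*, with every *Pst hrcC*- library above every mock library of its line. *ERF13* had 1.19, 1.31 and 4.36 FPKM in *linc1-1* *Pst hrcC*- and 0.282, 1.44 and 0.802 FPKM in *linc1-1* mock, against 3.37, 2.37 and 2.69 FPKM in WT *Pst hrcC*- and 0.311, 0.310 and 0.452 FPKM in WT mock. In WT the treated and mock libraries did not overlap, whereas in *linc1-1* they did, and replicate 3 alone held most of the *linc1-1* mean after *Pst hrcC*-.

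Subgroup IXb gave *ERF5*, *ERF6*, *ERF104* and *ERF105*. *ERF6*, the MAP kinase substrate, had 14.0, 18.2 and 10.9 FPKM in *linc1-1* *Pst hrcC*- and 24.1, 28.3 and 10.2 FPKM in *linc1-1* mock, against 9.77, 40.1 and 36.3 FPKM in WT *Pst hrcC*- and 21.9, 35.1 and 26.3 FPKM in WT mock. *ERF104*, the MPK6 partner, had 28.6, 33.1 and 31.1 FPKM in *linc1-1* *Pst hrcC*- and 50.1, 44.7 and 27.1 FPKM in *linc1-1* mock, against 19.0, 88.2 and 80.4 FPKM in WT *Pst hrcC*- and 33.9, 78.4 and 70.7 FPKM in WT mock. Both genes had their lowest value of the 12 in WT *Pst hrcC*- replicate 1, whereas WT *Pst hrcC*- replicates 2 and 3 were above every *linc1-1* library of either treatment. *ERF5*, which acts with ERF6 in the response to chitin, stayed between 2.81 and 6.87 FPKM in all 12 libraries, with overlap in every comparison. *ERF105* had 1.91, 1.64 and 1.38 FPKM in *linc1-1* *Pst hrcC*- and 2.71, 5.88 and 1.84 FPKM in *linc1-1* mock, against 3.69, 3.38 and 4.90 FPKM in WT *Pst hrcC*- and 5.07, 1.2 and 3.28 FPKM in WT mock. The lines were apart after *Pst hrcC*- and overlapped in mock seedlings, and the overlap with AT5G51180 applies to each of these values.

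The repressors differed in level. *ERF4* had 21.6, 21.7 and 17.0 FPKM in *linc1-1* *Pst hrcC*- and 14.8, 14.4 and 11.3 FPKM in *linc1-1* mock, against 32.9, 27.6 and 26.4 FPKM in WT *Pst hrcC*- and 17.5, 20.5 and 19.0 FPKM in WT mock. *ERF4* was the 1 gene of the 9 that separated both ways: under each treatment every *linc1-1* library was below every WT library, and in each line every *Pst hrcC*- library was above every mock library. *ERF11* had 0.575, 0.799 and 1.46 FPKM in *linc1-1* *Pst hrcC*- and 0.840, 0.908 and 0.253 FPKM in *linc1-1* mock, against 4.18, 3.45 and 2.26 FPKM in WT *Pst hrcC*- and 0.686, 1.47 and 0.954 FPKM in WT mock. The 3 WT *Pst hrcC*- libraries were the 3 highest of the 12, and the other 9 lay at or below 1.47 FPKM.

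The comparison of the lines after *Pst hrcC*- asked whether the ERF genes depend on *LINC1* during the immune response. The means of all 9 members were lower in *linc1-1*, on the log2(FPKM + 1) scale used for every fold change here, where 33.9% of all 16677 tested genes had a negative value. The median log2 fold change was −0.76 over the members and 0.14 over all tested genes. With size-factor scaling between libraries, which brings the median of all genes to 0.01, all 9 were again negative with a median of −0.91. In 5 of 9 members (*ERF1A*, *ERF2*, *ERF105*, *ERF4* and *ERF11*) the 2 groups did not overlap, each with *linc1-1* lower, against 6.19% of tested genes in that direction. limma called 0 of the 9 by the rule used throughout, an adjusted p below 0.05 together with a fold over 1.5, which called 0.432% of all tested genes. With p left unadjusted and the same fold 4 members passed, against 3.92% of tested genes lower by that rule.

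*ERF1A* stood at −1.56 (SE 0.55, limma adjusted p = 0.219) and *ERF2* at −1.06 (SE 0.45, adjusted p = 0.291). *ERF11* came nearest to the threshold with −1.14 (SE 0.26, adjusted p = 0.0849), and *ERF105* was at −0.91 (SE 0.37, adjusted p = 0.275). *ERF4* showed a small difference with a small error, −0.51 (SE 0.17, adjusted p = 0.207), under the fold required. The 95% intervals of *ERF6* (−0.76, −1.86 to 0.35), *ERF104* (−0.72, −1.87 to 0.43), *ERF13* (−0.33, −1.06 to 0.39) and *ERF5* (−0.15, −0.68 to 0.37) included 0.

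Without both WT replicate 1 libraries, limma called 4 members lower in *linc1-1* after *Pst hrcC*-: *ERF1A* (−1.95, SE 0.35, adjusted p = 0.00763), *ERF6* (−1.38, SE 0.38, adjusted p = 0.0332), *ERF104* (−1.42, SE 0.23, adjusted p = 0.00508) and *ERF11* (−0.996, SE 0.26, adjusted p = 0.0291). The same fit called 6.31% of all tested genes lower and 11.4% higher, with 2 libraries in each WT group. Since the left-out libraries were picked from the same values, these calls are a description. It did not call *ERF2* (−0.90, adjusted p = 0.116) or *ERF4* (−0.41, adjusted p = 0.0921).

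**Figure D2:**
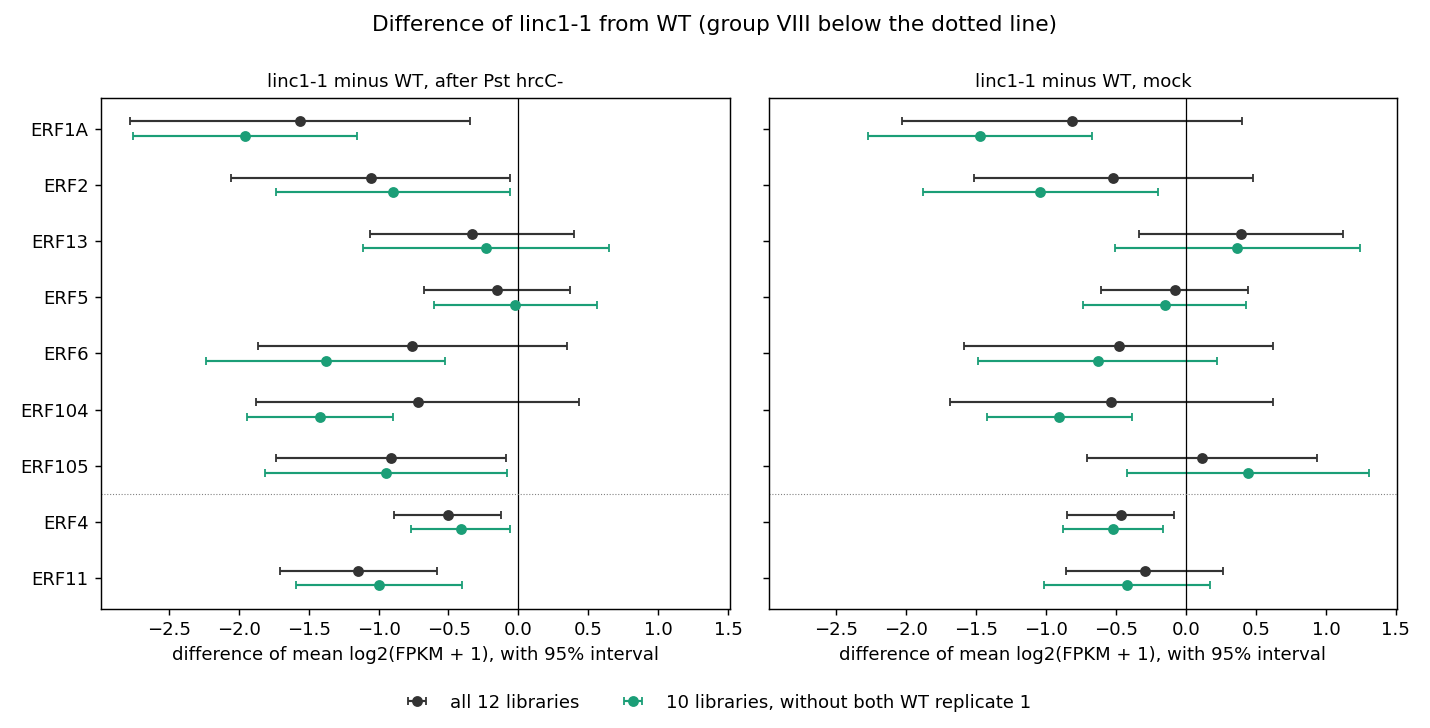
Difference of *linc1-1* from WT in mean log2(FPKM + 1) with its 95% interval, after *Pst hrcC*- (left) and in mock seedlings (right), from all 12 libraries and from the 10 without WT replicate 1. After *Pst hrcC*- all 9 points lie below 0 in both fits, and leaving out WT replicate 1 moves *ERF6* and *ERF104* to −1.38 and −1.42.

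In mock seedlings the median log2 fold change of the members was −0.47, or −0.10 without *linc1-1* mock replicate 3, the lowest library for 5 of the 9. *ERF4* was the 1 member of 9 whose groups did not overlap, at −0.47 (SE 0.17, limma adjusted p = 0.526), where 8.84% of tested genes did not overlap with *linc1-1* lower. Of the members, 7 had a negative value (49% of all tested genes), and *ERF13* (0.39) and *ERF105* (0.11) a positive one, and without *linc1-1* mock replicate 3 there were 6 negative. limma called 0 of 9, where 0.036% of all tested genes were called, and 0 passed an unadjusted p under 0.05 with the fold (2.81% of tested genes lower). Without both WT replicate 1 libraries, *ERF1A* (−1.47, SE 0.35, adjusted p = 0.0328) and *ERF104* (−0.90, SE 0.23, adjusted p = 0.0387) were called lower, among 3.82% of tested genes.

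Averaged over both treatments, 8 of 9 members had a negative log2 fold change in *linc1-1* against WT, where 39.4% of tested genes did. limma called 0 of 9 (2.09% of all tested genes were called), and at an unadjusted p under 0.05 with the fold 3 passed: *ERF1A* at −1.19 (SE 0.39), *ERF2* at −0.79 (SE 0.32) and *ERF11* at −0.72 (SE 0.18, adjusted p = 0.0627). By that rule 3.93% of tested genes were lower. *ERF4* was at −0.49 (SE 0.12, adjusted p = 0.0631), below the fold. Leaving out WT *Pst hrcC*- replicate 1 alone brought *ERF1A*, *ERF6* and *ERF104* past the threshold (adjusted p = 0.0488, 0.0472 and 0.0325), among 3.63% of tested genes lower. Leaving out WT mock replicate 1 alone brought *ERF1A*, *ERF2* and *ERF11* past it (adjusted p = 0.0168, 0.0323 and 0.0303), among 3.06% lower. Without both, *ERF1A* (−1.71), *ERF2* (−0.97), *ERF6* (−1.005), *ERF104* (−1.16) and *ERF11* (−0.71) were called, 5 of 9, among 6.94% of tested genes lower.

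The response to *Pst hrcC*- was next compared within each line. In *linc1-1*, 6 of 9 members had a positive log2 fold change (55.3% of all tested genes), and *ERF1A*, *ERF2* and *ERF4* had no overlap between treated and mock libraries, where 7.45% of tested genes did not overlap in that direction. limma called 0 of 9 (0.606% of all tested genes were called), and 2 members passed an unadjusted p under 0.05 with the fold (2.79% of tested genes higher): *ERF2* at 1.60 (SE 0.45, adjusted p = 0.323) and *ERF13* at 0.76 (SE 0.33, adjusted p = 1). *ERF4* was at 0.54 (SE 0.17). *ERF1A* was at 0.61 (SE 0.55), with an interval from −0.60 to 1.83. Its lowest treated library (23.6 FPKM) was barely above its highest mock library (23.3 FPKM). *ERF6* (−0.43), *ERF104* (−0.34) and *ERF105* (−0.66) had negative values with intervals that included 0. The median of the 9 members in this response was 0.22. Without *linc1-1* mock replicate 3, where *ERF1A* had 8.43 FPKM, the median was 0.03 and 4 of 9 members were negative.

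In WT, 7 of 9 members had a positive value, against 34% of all tested genes. That share is without scaling, where the median of all genes was −0.09. With size-factor scaling that median was −0.004, and 2 of 9 members were again negative. *ERF2*, *ERF13*, *ERF4* and *ERF11* did not overlap between treatments (2.9% of tested genes, higher after *Pst hrcC*-). limma again called 0 of 9, with 0.18% of all tested genes called, and 4 members passed unadjusted with the fold (2.16% of tested genes higher). They were *ERF2* at 2.13 (SE 0.45, adjusted p = 0.144), *ERF13* at 1.48 (SE 0.33, adjusted p = 0.178), *ERF1A* at 1.36 (SE 0.55, adjusted p = 0.922) and *ERF11* at 1.07 (SE 0.26, adjusted p = 0.225). Without both WT replicate 1 libraries these values were 1.46, 1.35, 1.10 and 0.80, and none was called. *ERF6* (−0.15, 95% interval −1.25 to 0.96) and *ERF104* (−0.15, −1.30 to 1.003) had wide intervals, and replicate 1 was their lowest WT library after *Pst hrcC*-. Without both WT replicate 1 libraries *ERF6* stood at 0.32, with an interval still wide (−0.61 to 1.25), and *ERF104* at 0.18 (−0.39 to 0.74).

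**Figure D3:**
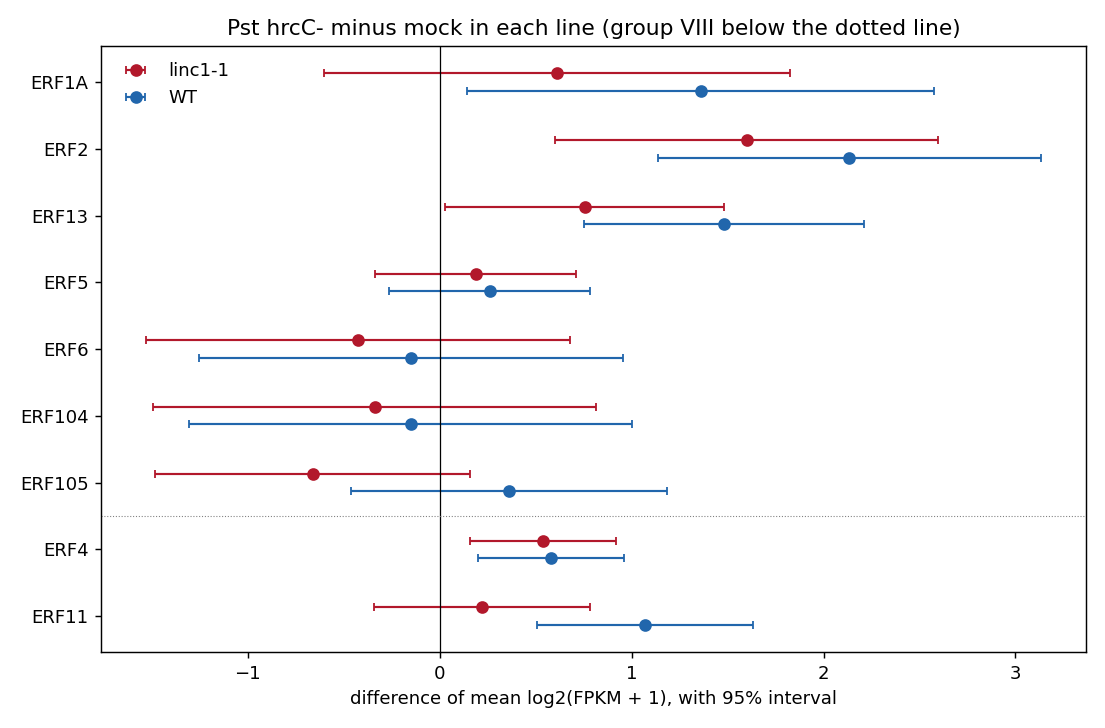
Difference between *Pst hrcC*- and mock seedlings in mean log2(FPKM + 1), with its 95% interval, for *linc1-1* and WT. *ERF2* had the largest value on this scale in both lines (1.60 and 2.13), and *ERF11* was at 0.22 in *linc1-1* and 1.07 in WT.

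The responses themselves were compared by the interaction term, the response of *linc1-1* minus that of WT. All 9 members had a negative difference, where 32.9% of all tested genes did, but limma called 0 of 9 and 0% of all tested genes. The share of 32.9% is without scaling, where the median of all genes was 0.12. With size-factor scaling that median was −0.006, and all 9 members were again negative. *ERF11* alone passed an unadjusted p under 0.05 with the fold (0.612% of tested genes lower), with a response of 0.22 in *linc1-1* and 1.07 in WT and a difference of −0.85 (SE 0.36, adjusted p = 0.9995). *ERF105* was at −1.02 (95% interval −2.19 to 0.14), *ERF1A* at −0.75 (−2.46 to 0.97) and *ERF13* at −0.73 (−1.76 to 0.30). *ERF4* was at −0.04 (−0.58 to 0.50). A difference between the responses was therefore not shown for any member. Without both WT replicate 1 libraries *ERF11* no longer passed unadjusted (−0.57, 95% interval −1.41 to 0.27), *ERF105* did (−1.39, −2.61 to −0.17, adjusted p = 1), and 6 of 9 were negative, with *ERF2* at 0.14, *ERF5* at 0.13 and *ERF4* at 0.11.

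Activators and repressors were compared by their mean over each set, as a description without a test. The mean log2(FPKM + 1) of the 7 activators was 3.31 ± 0.05 in *linc1-1* *Pst hrcC*-, 3.06 ± 0.52 in *linc1-1* mock, 4.09 ± 0.34 in WT *Pst hrcC*- and 3.34 ± 0.37 in WT mock (SD, n = 3 each). For *ERF4* and *ERF11* it was 2.66 ± 0.08 in *linc1-1* *Pst hrcC*-, 2.28 ± 0.27 in *linc1-1* mock, 3.49 ± 0.24 in WT *Pst hrcC*- and 2.66 ± 0.19 in WT mock. Both sets were thus at their highest in WT *Pst hrcC*- seedlings, and after *Pst hrcC*- the *linc1-1* libraries of each set (3.25 to 3.34 for activators, 2.58 to 2.74 for repressors) lay below the WT libraries (3.71 to 4.33 and 3.24 to 3.73). The activators exceeded the repressors by 0.64 ± 0.04 in *linc1-1* *Pst hrcC*-, 0.78 ± 0.27 in *linc1-1* mock, 0.60 ± 0.57 in WT *Pst hrcC*- and 0.67 ± 0.21 in WT mock, so that the group means of this difference were closer together than the libraries within 3 of the 4 groups. WT *Pst hrcC*- replicate 1 was the exception among libraries, with a difference of −0.02 against 0.75 and 1.09 in replicates 2 and 3.

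**Figure D4:**
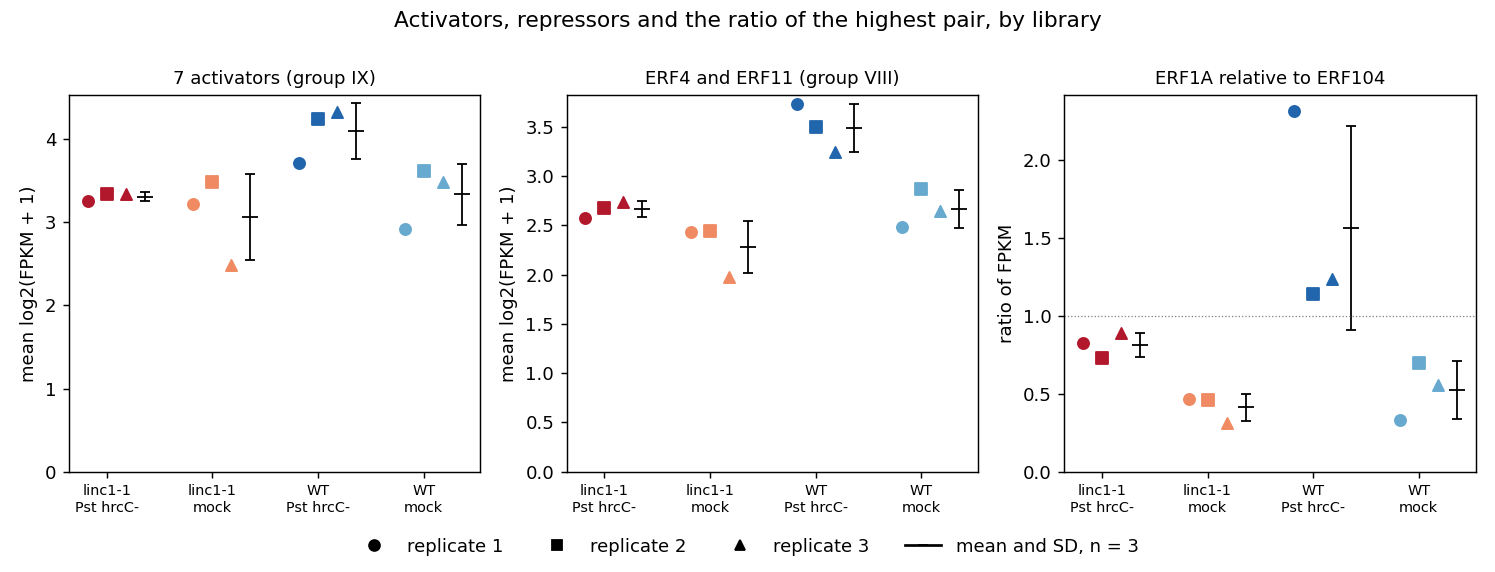
Mean log2(FPKM + 1) of the 7 activators (left) and of *ERF4* and *ERF11* (middle), and the ratio of *ERF1A* to *ERF104* FPKM (right, dotted line at 1), by library, with mean and SD of the 3 libraries. Activators and repressors were both highest in WT *Pst hrcC*- (4.09 and 3.49), and the ratio exceeded 1 in the 3 WT *Pst hrcC*- libraries alone.

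The rest of both groups was looked at from a list of family members. Of 10 other group IX genes, 4 reached the filter on low values, 2 of them negative and 2 positive in *linc1-1* against WT after *Pst hrcC*-, and limma called 0 in every comparison (0 at an unadjusted p under 0.05 with the fold between the lines). By that unadjusted rule 1 of the 4 was higher after *Pst hrcC*- in *linc1-1* (2.79% of tested genes) and 2 in WT (2.16%). *ORA59*, named after its values were seen, rose without overlap by 1.47 in *linc1-1* (SE 0.36, adjusted p = 0.181) and 1.29 in WT (SE 0.36, adjusted p = 0.450). Between the lines after *Pst hrcC*- it was at −0.17 (SE 0.36). *ERF15* had the largest value there, with 8.76, 10.5 and 15.6 FPKM in *linc1-1* *Pst hrcC*- against 14.1, 3.30 and 9.03 FPKM in WT *Pst hrcC*- and a value of 0.51 on the log2 scale (SE 0.41, adjusted p = 0.543). All 6 other group VIII genes were tested, with 4 negative and a median of −0.14, and limma called 0 (0 at an unadjusted p under 0.05 with the fold in this comparison). *ERF10* was at −0.92 (SE 0.44, adjusted p = 0.331). *ERF107*, a gene named after its values were seen because it adjoins *ERF104*, shared the low WT *Pst hrcC*- replicate 1 of its neighbour, with 294, 325 and 337 FPKM in *linc1-1* *Pst hrcC*- against 222, 555 and 640 FPKM in WT *Pst hrcC*-.

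Upstream of the ERF genes, 10 of 13 genes of the ethylene signal chain (receptors, *CTR1*, *EIN2*, *EIN3* and their regulators) had a negative log2 fold change in *linc1-1* against WT after *Pst hrcC*-, where 33.9% of tested genes did. Their median was −0.19, and limma called 0 of 13, where it called 0.432% of all tested genes. At an unadjusted p under 0.05 with the fold 0 passed, against 3.92% of tested genes lower. *EBF2*, an F-box gene that EIN3 activates and whose product degrades EIN3, had 19.1, 17.8 and 15.8 FPKM in *linc1-1* *Pst hrcC*- against 19.1, 31.8 and 39.3 FPKM in WT *Pst hrcC*-, and its log2 fold change was −0.69 (SE 0.32, adjusted p = 0.331). Downstream, 5 GCC box targets were looked at in the same comparison: *PDF1.2A*, *PDF1.2b*, *PDF1.2c*, *HCHIB* and *PR4*. The *PDF1.2* genes are near-identical copies whose reads may be shared, so the 5 signs are not independent. All 5 had a positive log2 fold change (median 0.62), as did 11003 of 16677 tested genes, and limma called 0 of 5, with 0 also at an unadjusted p under 0.05 and the fold. *PDF1.2c*, a plant defensin of a family with near-identical copies, had 143, 121 and 84.4 FPKM in *linc1-1* *Pst hrcC*- and 0.0832, 0.511 and 0 FPKM in *linc1-1* mock, against 265, 21.6 and 5.80 FPKM in WT *Pst hrcC*- and 0.109, 5.99 and 5.73 FPKM in WT mock. It rose after *Pst hrcC*- in *linc1-1* by 6.60 (SE 1.10, adjusted p = 0.0224), a call lost on leaving out any of the 6 *linc1-1* libraries, with no filter on low values and with the replicate number as a block. In WT its value was 3.20 (adjusted p = 0.729), and the difference between the responses was 3.39 (SE 1.55, adjusted p = 0.9995).

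Across the 12 libraries, the genes outside the set whose log2(FPKM + 1) followed the mean z-score of the 9 members most closely, out of 8774 genes that averaged 5 FPKM or more, were *ZAT10* (Pearson r = 0.96), *PUB22* (0.95), *WRKY33* (0.95), AT5G19230 (0.94) and *MKK9* (0.94). These values are a description over libraries that share groups and carry no test. *ZAT10*, a zinc finger gene of the early stress response, had 7.84, 6.47 and 8.33 FPKM in *linc1-1* *Pst hrcC*- and 5.39, 7.67 and 2.34 FPKM in *linc1-1* mock, against 18.9, 27.8 and 21.2 FPKM in WT *Pst hrcC*- and 3.67, 14.3 and 8.37 FPKM in WT mock. The 3 WT *Pst hrcC*- libraries were highest and *linc1-1* mock replicate 3 lowest, as in the mean z-score of the members (0.66 to 1.10 and −1.34). Within the set, r with the mean of all 9, each member included in it, ran between 0.36 for *ERF105* and 0.94 for *ERF1A*.

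A list of 7 touch and early stress genes also differed between the lines: *TCH2*, *TCH3*, *TCH4*, *WRKY40*, *ZAT10*, *ZAT12* and *KRP1* (AT4G27280). Touch genes are induced by handling and other mechanical stimuli. *ZAT10* is also the gene described above as most like the members, so the list is not independent of that result. All 7 of the list were negative in *linc1-1* against WT after *Pst hrcC*-, where 33.9% of tested genes were. Their summed level was 104 to 106 FPKM in *linc1-1* and 288 to 715 FPKM in WT, most of it from *TCH4* and *TCH3*. limma called 2 of them lower, where it called 0.432% of all tested genes. They were *TCH4* (−2.74, SE 0.50, adjusted p = 0.0450), which encodes a cell wall enzyme, and *TCH3* (−2.17, SE 0.39, adjusted p = 0.0440), which encodes a calmodulin-like protein. Both calls were lost in 12 of 22 other settings, among them leaving out any of the 3 *linc1-1* *Pst hrcC*- libraries. At an unadjusted p under 0.05 with the fold all 7 were lower, against 3.92% of tested genes. Over both treatments limma called *TCH4* and *TCH3* lower as well, where it called 2.09% of all tested genes. There *TCH4* was called in 21 of 21 other settings and *TCH3* in 20 of 21. In mock seedlings the sum was 90.3 to 266 FPKM in *linc1-1*, with the lowest in replicate 3, and 587 to 658 FPKM in WT. Root markers summed to 230 to 260 FPKM in *linc1-1* *Pst hrcC*- and 158 to 301 FPKM in WT *Pst hrcC*-, with *EXPA7* and *EXPA18* listed at 0 in a WT library, and *CASP1*, an endodermis gene, was at 1.14 (SE 0.64, adjusted p = 0.401). Green tissue markers summed to 40617 to 66937 FPKM in *linc1-1* *Pst hrcC*- and 29442 to 66320 FPKM in WT *Pst hrcC*-, with *CAB1* listed at 0 in 2 *linc1-1* libraries. Clock genes summed to 262 to 276 FPKM in *linc1-1* *Pst hrcC*- and 84.5 to 291 FPKM in WT *Pst hrcC*-, where replicate 1 was the low one. The part of touch, tissue make-up and clock phase in the ERF differences was not tested.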

How the data were processed

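mRNA of whole seedlings was sequenced with a stranded kit and paired reads. The authors mapped reads to TAIR10 with TopHat2 (2.1.1 in the labels) after FastQC and deposited FPKM from Cufflinks (2.2.1 in the labels) in 1 table per line of 27371 genes. The methods name other versions of both tools. Depth is unknown, since low values were not whole multiples of a floor (29.1 to 39.67% within 0.15 of a whole number, where 30% would be by chance, over 6327 genes).

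The 12 columns were assigned to groups by the line, treatment and replicate in their names. Of the identifiers, 97.6% matched TAIR10.1 (RefSeq), which gave symbols, positions and sequence. The 16677 genes that averaged 1 FPKM or more were put on the log2(FPKM + 1) scale and compared with limma 3.58.1 (R 4.3.3), using a single model of the 4 groups, a variance trend and Benjamini-Hochberg adjustment over all tested genes in each of 6 contrasts. The study itself used cuffdiff on reads, which FPKM do not allow. Calls required an adjusted p below 0.05 together with a fold over 1.5. The procedure was tested on simulated data with independent normal noise and no library standing apart. That test therefore does not cover the uneven WT libraries. Coding sequences were aligned with Biopython 1.88.

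The members and lists were chosen with earlier results of these data known. Named are all 9 members, *LINC1*, up to 4 called genes per list or else the gene with the largest fold change between the lines after *Pst hrcC*-, and the 5 genes most like the member mean. *ERF107*, *ORA59*, *TOC1* and *LHCB2.1* were added after their values were seen, and the list of touch and early stress genes is named in full. Alternatives were another pseudocount, filters, scalings, trend, weights, a replicate block and left-out libraries.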

Additional observations from a re-analysis of the deposited data

How the results depend on the processing

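Beside the values reported, 21 or 22 other settings were run for each comparison (20 for low genes). The count of members called stayed at 0 with a pseudocount of 0.1 FPKM, no filter on low values, a filter at 5 FPKM (which leaves out *ERF13*, *ERF5*, *ERF105* and *ERF11*), size-factor scaling, quantile normalization, no variance trend and only the compared groups in the model. With array weights, which gave WT replicate 1 the lowest weights (0.172 and 0.186, against 0.702 to 2.34 elsewhere), 3 members were called between the lines after *Pst hrcC*- (668 of 16677 tested genes lower), 1 in mock seedlings (743 tested genes lower), 5 over both treatments (1010 lower) and 1, *ERF2*, between treatments in *linc1-1* (264 higher). Without both WT replicate 1 libraries the counts were 4, 2 and 5 for the 3 comparisons of the lines. Leaving out single libraries gave 0 to 3 members over both treatments, 0 to 1 for the WT response (*ERF13*, without *linc1-1* *Pst hrcC*- replicate 3, adjusted p = 0.0303) and 0 elsewhere. The cause of these differences was not tested.

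The replicate numbers did not pair the libraries in general: of 18 correlations between same-numbered libraries of different groups, 4 were above 0.1 (−0.21 to 0.45, against −0.42 to 0.35 for different numbers). The highest, 0.45, was between both WT replicate 1 libraries, which thus shared part of their departure from their groups. The next, 0.37, was between *linc1-1* mock and WT mock replicate 2. With the replicate number as a block, 0 members were called in each of the 6 comparisons. The calls of *PDF1.2c* in the *linc1-1* response and of *TCH3* and *TCH4* between the lines after *Pst hrcC*- were lost with the block.

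Signs were lost only among values that no fit called. With array weights the WT response was 0.062 for *ERF104* and 0.20 for *ERF6*, and the difference of the responses 0.021 for *ERF4* and 0.016 for *ERF5*. Without both WT replicate 1 libraries the WT response was 0.18 for *ERF104* and 0.32 for *ERF6*, and the difference of the responses 0.14 for *ERF2*, 0.11 for *ERF4* and 0.13 for *ERF5*. *ERF13* over both treatments was −0.031 with size-factor scaling and −0.033 with quantile normalization. With single libraries left out, the difference of the responses ran from −0.89 to 0.19 for *ERF104*, −0.94 to −0.015 for *ERF2*, −0.15 to 0.071 for *ERF4*, −0.29 to 0.064 for *ERF5* and −0.90 to 0.069 for *ERF6*. The WT response ran from −0.53 to 0.55 for *ERF104*, −0.043 to 0.69 for *ERF105* and −0.49 to 0.47 for *ERF6*, and the *linc1-1* response of *ERF5* from −0.032 to 0.32. In mock seedlings, *linc1-1* against WT ran from −0.29 to 0.44 for *ERF105* and −0.22 to 0.14 for *ERF5*, and over both treatments from −0.18 to 0.15 for *ERF13*. Of the other genes called, *LINC1* after *Pst hrcC*- was lost in 1 setting, with only the groups compared (adjusted p = 0.0684).

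With 3 libraries a group and unknown depth, low genes such as *ERF11* and *ERF13* rest on few reads of unknown number, and the pseudocount of 1 FPKM understates their fold changes. FPKM keeps differences in library composition, and the median of all genes was shifted by 0.14 between the lines after *Pst hrcC*-. The sum of FPKM over all genes ran from 904687 to 7037666 in the libraries, and 2 genes were above 1e6 FPKM in a library.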
